A study of Xenopus laevis with 4 samples.

Results

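The cells described here are the 805 of 3405 deposited ectoderm cells of Xenopus laevis in which at least 1 UMI of the gene Xelaev18033986m.g was counted. They are called positive cells, and the 2600 cells with 0 UMIs of the gene are called negative cells. A UMI (unique molecular identifier) tags 1 captured transcript molecule, which keeps its PCR copies from being counted again. The gene had been picked because it was higher in NT than in IVF libraries. Its own levels are therefore given below as a description, without a test, and it was left out of every sum in which other genes were compared.

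In nuclear transfer (NT), the nucleus of a differentiated cell is placed in an enucleated egg, whose cytoplasm resets much of the transferred gene activity. The NT embryos came from endoderm nuclei of neurula stage donors, and in vitro fertilized (IVF) embryos of the same species served as controls. Only NT embryos that looked like IVF embryos at stage 12 were kept. The 2 experiments each gave 1 NT and 1 IVF library from the ectoderm of 5 pooled embryos, named NT1 and IVF1 in experiment 1 and NT2 and IVF2 in experiment 2. A library is thus 1 pool, and its embryos cannot be told apart. Different versions of the library chemistry were in use and are not assigned to libraries here, so levels were compared between NT and IVF only within an experiment.

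Gastrula ectoderm of the frog is a sheet of an outer and an inner layer that goes on to form the mucociliary epidermis and, in other regions, neural and placodal tissue. Transcripts of the donor's germ layer can persist in such cells after NT. The files name genes by identifiers without symbols, and no table at hand pairs them. Neither the function of Xelaev18033986m.g nor the ectoderm label could therefore be checked against markers. Clusters of cells are given by number.

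The libraries held 16543235 UMIs in 514 cells (NT1), 19577320 in 566 (IVF1), 49791903 in 1050 (NT2) and 58592836 in 1275 (IVF2). They shared 0 cell barcodes. Scrublet called 55 cells doublets. Of the called cells, NT1 held 5 positive and 1 negative, IVF1 held 1 and 6, NT2 held 9 and 2, and IVF2 held 3 and 28.

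NT1 had 95 positive and 419 negative cells, a positive share of 18.5% (exact Clopper-Pearson 95% interval 15.2 to 22.1%). IVF1 had 61 positive and 505 negative cells, a share of 10.8% (8.34 to 13.6%). In experiment 2 the gap was wider. NT2 had 497 positive and 553 negative cells (47.3%, 44.3 to 50.4%), and IVF2 had 152 positive and 1123 negative cells (11.9%, 10.2 to 13.8%). The intervals cover counting error only and not the spread between embryo pools, of which there were 2 per condition.

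Most positive cells of NT1, IVF1 and IVF2, but not of NT2, sat at the edge of the rule. Exactly 1 UMI was seen in 51 of 95 positive cells of NT1, 50 of 61 of IVF1, 203 of 497 of NT2 and 120 of 152 of IVF2. The mean was 1.79 ± 1.09 UMIs per positive cell in NT1 and 1.20 ± 0.44 in IVF1, and 3.64 ± 4.25 in NT2 and 1.27 ± 0.60 in IVF2 (SD over cells). The median was 2 UMIs in NT2 and 1 in each of the other 3 libraries. NT2 alone had cells with 10 or more UMIs of the gene, 46 of them, and its highest cell had 28, against 6 in NT1, 3 in IVF1 and 4 in IVF2. The level over all cells was 10.3 CPM (UMIs per 1000000 UMIs of the library) in NT1 and 3.73 in IVF1, and 36.4 in NT2 and 3.29 in IVF2.

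**Figure D1:**
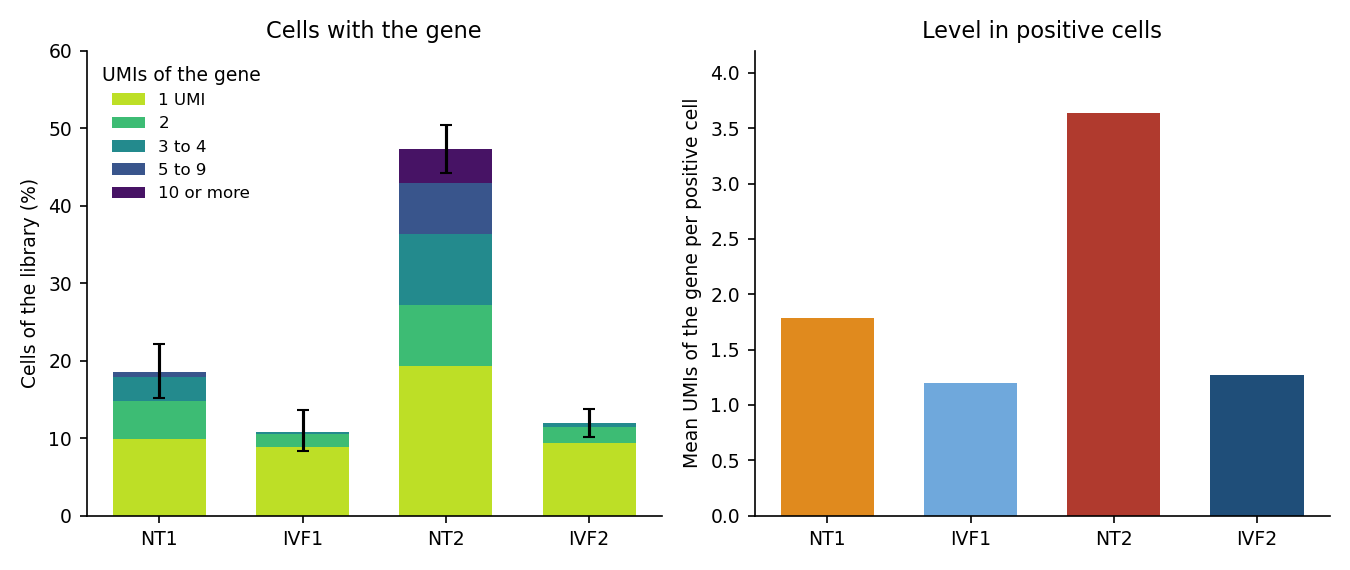
Left, cells with the gene as a percentage of each library, stacked by the number of UMIs of Xelaev18033986m.g in the cell, with exact 95% binomial intervals of the whole bar. Right, mean UMIs of the gene per positive cell. NT2 stands highest in both panels, at 47.3% and 3.64 UMIs, and the IVF libraries lie at 10.8 and 11.9% and at 1.20 and 1.27 UMIs.

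In NT both the share of positive cells and the UMIs per positive cell were higher. The 2 are not separate measures, because a higher level of the gene in all cells raises both. The number of UMIs of the gene per cell was 2.56 times as high in NT1 as in IVF1. That factor is the product of a 1.71 times higher share of positive cells and 1.50 times more UMIs per positive cell, so that on a log scale 57.3% of the rise lay in the share. In experiment 2 UMIs per cell were 11.4 times as high in NT2 as in IVF2, from a share 3.97 times as high and 2.87 times more UMIs per positive cell, with 56.7% of the log rise in the share. The size of the rise thus differed between the experiments, while its division into these 2 factors was alike. The division does not tell which cells held the UMIs. With an equal level in all cells of a library, 133 positive cells would be expected in NT1, against 95 seen. For IVF1 the values were 66.3 and 61, for NT2 790 and 497, and for IVF2 177 and 152. Why fewer were seen was not tested.

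This division depends on how deeply cells were read, because a cell of low level turns positive more often at greater depth. With each cell thinned to an expected 20000 UMIs, leaving out 203 shallower cells of NT1, 182 of IVF1, 155 of NT2 and 94 of IVF2, the positive share was 13.6% in NT1 and 6.56% in IVF1, and 32.0% in NT2 and 5.52% in IVF2. The share was then 2.08 and 5.81 times as high in NT in experiments 1 and 2, and carried 75.7 and 73.9% of the log rise. At 6000 UMIs per cell the share was 2.22 and 8.65 times as high in NT and carried 92.2 and 89.9% of the rise. UMIs per positive cell then lay between 1.03 and 1.31 in all 4 libraries, close to the lowest possible value of 1, and no change is read from them.

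With a minimum of 2 UMIs the ratio of shares was larger. There were 44 such cells in NT1 against 11 in IVF1, and 294 in NT2 against 32 in IVF2. Their share was 4.40 times as high in NT in experiment 1 and 11.2 times as high in experiment 2. The gene was picked for being higher in NT, so the larger ratios add no separate evidence. Depth was not made equal here. The median total of these cells was 81578.5 UMIs in NT1 and 65196 in IVF1, and 60384.5 in NT2 and 56837 in IVF2.

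Positive cells were deeper than negative cells in 4 of 4 libraries. Their median total was 36912 UMIs against 22128 in negative cells of NT1, and 38697 against 26472 in IVF1. The gap was smaller in experiment 2, with 53788 against 39758 UMIs in NT2 and 52358 against 43286 in IVF2. The log2 ratio of positive over negative averaged 0.50 ± 0.19 (SD, n = 4 libraries). In an exact two-sided sign-flip permutation test, 2 of 16 sign patterns were as extreme, the smallest share that 4 libraries allow. At an equal level of the gene, a deeper cell more easily shows at least 1 UMI. The rule for positive cells thus favors deep cells by itself, and the test cannot separate that from any other difference in depth. The interquartile ranges of both sides overlapped in every library. Positive cells also had more detected genes, a median of 7082 against 5642 in NT1, 7351 against 6179 in IVF1, 7309 against 6422 in NT2 and 6935 against 6306 in IVF2. At an equal 6000 UMIs per cell, the mean number of detected genes was 36 ± 12 higher in positive cells (SD, n = 4; 2 of 16 sign patterns in the same exact test), on a base of 2332 to 2762 genes in negative cells. The gap in detected genes was thus far smaller at equal UMIs.

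**Figure D2:**
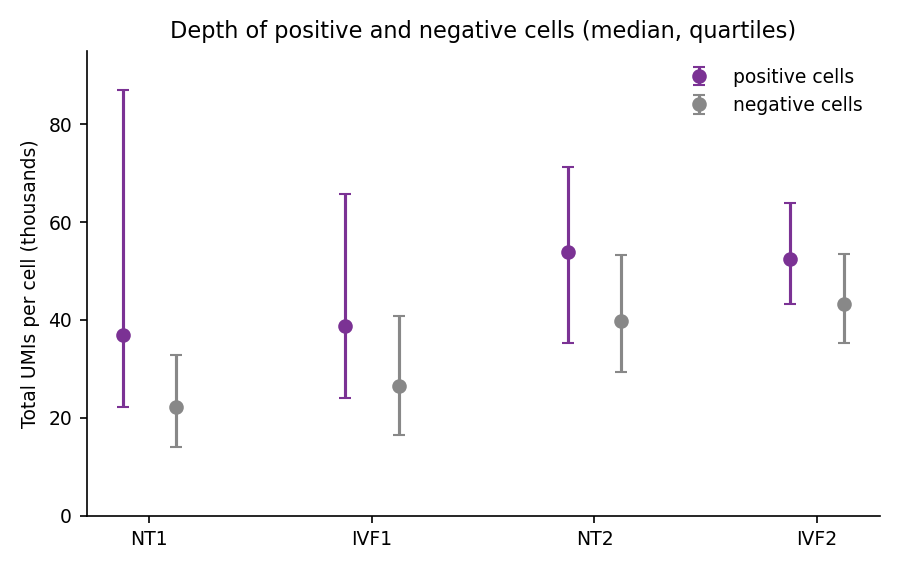
Total UMIs per cell in positive and negative cells of each library. Points are medians and bars run from the first to the third quartile; the positive point is the higher one in each library, and the bars of both sides overlap.

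Within each library, cells were ordered by total UMIs and divided into 4 equal parts. The deepest part held the highest share of positive cells in all 4 libraries, 38.0% in NT1 and 20.4% in IVF1, and 68.4% in NT2 and 19.7% in IVF2. The shallowest part held 9.30% in NT1 and 4.93% in IVF1, and 39.5% in NT2 and 4.70% in IVF2. The level of the gene was higher in the deepest part in experiment 2 only. In the deepest and the shallowest part it was 11.7 and 12.7 CPM in NT1, 3.67 and 5.43 in IVF1, 45.4 and 38.2 in NT2, and 3.87 and 1.87 in IVF2.

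Positive cells were spread unevenly over the 11 clusters, which were built from 2000 variable genes without Xelaev18033986m.g and are given as a description. Clusters 1, 2 and 3, grouped after their values were seen, held 84.2% of the positive and 26.3% of the negative cells of NT1, and 96.7 and 51.9% of those of IVF1. In experiment 2 they held 62.2 and 25.1% in NT2, and 78.9 and 27.7% in IVF2. The share of positive cells in these 3 clusters was 42.1% in NT1 and 18.4% in IVF1, and 69.0% in NT2 and 27.8% in IVF2. In clusters 0, 4, 6 and 8, also grouped after their values were seen, it was 5.12% in NT1 and 1.08% in IVF1. In experiment 2 it was 14.0% in NT2 and 3.75% in IVF2. The median depth was higher in the first of these groups in 3 libraries and lower in IVF1. It was 26445.5 and 23831 UMIs in NT1, 25929 and 29390 in IVF1, 46350 and 44142.5 in NT2, and 45137 and 43914 in IVF2. Clusters 5, 7, 9 and 10 lay in neither group. In NT2 the share was 66.0% in cluster 5, 17.6% in cluster 7 and 90.9% in cluster 10. Cluster 5 had 0 positive cells in NT1 and in IVF1, and cluster 9 had cells in experiment 1 only.

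Depth alone did not order the clusters. The 67 cells of cluster 1 in NT1 had a median of 21569 UMIs, and 40.3% of them were positive (28.5 to 53.0%). The 153 cells of cluster 0 in NT1 had a higher median of 23807 UMIs, and 2.61% were positive (0.717 to 6.56%). Cluster 1 had 18.5% positive cells in IVF1, 65.6% in NT2 and 21.2% in IVF2, where cluster 0 had 0.870, 11.8 and 3.34%. After thinning to 20000 UMIs, cluster 1 had 44.2% in NT1 and 15.2% in IVF1, and 39.4% in NT2 and 11.1% in IVF2, and cluster 0 had 1.26% in NT1 and 0.489% in IVF1, and 5.68% in NT2 and 1.48% in IVF2. Cluster 2, the deepest of the 3, had medians of 64449.5 UMIs in NT1, 53043 in IVF1, 60947 in NT2 and 51342 in IVF2, and its positive shares were 43.9% in NT1 and 22.5% in IVF1, and 65% in NT2 and 37.8% in IVF2. Which cluster should lack the gene is unknown, and the level that free RNA would give was not tested.

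**Figure D3:**
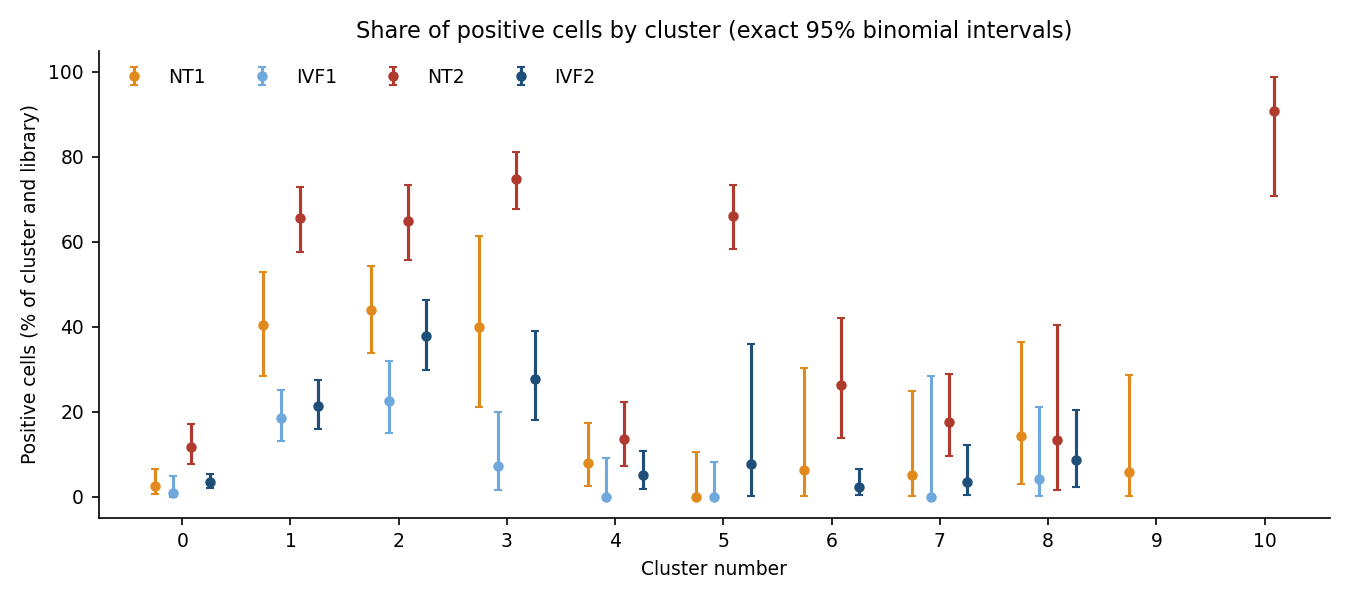
Positive cells as a percentage of the cells of each cluster and library, for clusters with at least 10 cells of that library, with exact 95% binomial intervals. Clusters 1 and 2 lie above cluster 0 in all 4 libraries, and NT2 has 66.0% positive cells in cluster 5, where NT1 and IVF1 have 0 and IVF2 has 7.69%.

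Higher shares in NT were found in most clusters. The gene was picked for being higher in NT, so these counts only describe where that rise lay. In experiment 1, 8 clusters had at least 10 cells in both libraries. The share was higher in NT1 in 7 of them and 0 in both libraries in the last. Some of the 7 rested on few cells. Cluster 7 had 1 positive cell of 20 in NT1 against 0 of 11 in IVF1, and cluster 8 had 3 of 21 against 1 of 24. In experiment 2, 9 clusters had enough cells, and the share was higher in NT2 in 9. If each cluster of NT1 had kept the positive share that its cells had in IVF1, 7.50% of the cells would have been positive, against 18.5% observed. For NT2 with the shares of IVF2 the value was 15%, against 46.4% observed over the 1028 cells in clusters that both libraries held. The observed share was above the value so computed in both experiments, and with coarser or finer clusters the computed values were 7.65 and 7.82% for NT1 and 14.3% in both cases for NT2.

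NT2 differed from the other libraries in cluster 5. There 107 of 162 cells were positive (66.0%, 58.2 to 73.3%), with 6.39 UMIs per positive cell and 104 CPM, and they held 37.8% of all UMIs of the gene in NT2. NT1 had 0 positive cells of 33 in that cluster (interval up to 10.6%), IVF1 had 0 of 43 (up to 8.22%) and IVF2 had 1 of 13 (up to 36.0%). Cluster 10, found in NT2 only, had 20 positive cells of 22 (90.9%, 70.8 to 98.9%). NT1 did not share these values, so they describe 1 library.

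Positive cells differed from negative cells in 3556 other genes. UMIs were summed per library and side, giving 8 sums, which entered a quasi-likelihood test in edgeR that kept the library as a block. Of 16048 genes tested, 1871 (11.7%) were higher and 1685 (10.5%) lower in positive cells at a Benjamini-Hochberg adjusted p under 0.05. The median log2 fold change was 0.79 among the genes called higher and -0.59 among those called lower. A change of more than 1 on the log2 scale was reached by 640 and 446 of them. DESeq2 called 1639 genes higher and 1390 lower.

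Abundant genes were among the calls. Of the 1827 genes that averaged 100 CPM or more, 312 were called higher and 359 lower. Over all 16048 genes tested the shares were smaller, at 11.7% called higher and 10.5% called lower. Whether the larger counts of abundant genes made them easier to call was not tested. The genes called higher took 17.8% of the UMIs of positive cells and 10.3% of those of negative cells in NT1, and 19.6 and 12.9% in IVF1. In NT2 they took 17.1 and 10.0%, and in IVF2 25.3 and 14.0%. The genes called lower took 15.5 to 16.5% of the UMIs of positive cells and 20.7 to 23.5% of those of negative cells. These shares describe genes chosen by the same sums and add no separate evidence.

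Many differences were repeated in every library. The ratio of positive over negative lay above 0 on the log2 scale in all 4 libraries for 3120 genes (19.4%) and below 0 in all 4 for 3401 (21.2%). It was above 0.5 in all 4 libraries for 704 genes (4.39%), of which 700 were called higher, and below -0.5 for 450 genes (2.8%), of which 434 were called lower. Of the called genes, 1765 were higher and 1624 lower in each of the 4 libraries, and 167 had mixed signs. The calls and these ratios come from the same sums, so their agreement adds no separate evidence.

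Most differences outlasted a match on depth but not a match on depth and cluster. When each positive cell was paired with a negative cell of the same library within 5% of its total UMIs, which kept 78 pairs in NT1, 61 in IVF1, 397 in NT2 and 151 in IVF2, 2187 genes were called, of which 2048 were also called over all cells. Of the 13952 genes tested in this match, 3296 were called over all cells. The matched cells are among the same cells, so this overlap and the fold changes of these genes add no separate evidence. Genes called higher over all cells then had a median log2 fold change of 0.71, against 0.75 for the same 1738 genes over all cells. Those called lower had -0.49, against -0.55 for the same 1558 genes. When the paired cell also had to lie in the same cluster, 53 pairs in NT1, 54 in IVF1, 202 in NT2 and 138 in IVF2 were left, and 14 of 13471 genes were called, 11 higher and 3 lower, of which 4 were also called over all cells. Of the 13471 genes, 3227 were called over all cells, so an overlap of 4 in 14 lies near that share. In this match DESeq2 called 0, with 91 of the 13471 genes at an unadjusted p under 0.05, against 840 with edgeR. With clusters from another random seed, a coarser or a finer resolution, the count was 17, 7 and 4, and it lay between 1 (without NT2) and 49 (without IVF1) when a library was left out.

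Calls stayed frequent at the same number of cells without the cluster. The same positive cells set against an equal number of negative cells matched on total UMIs alone gave 1631 calls, 1547 of them shared with all cells. Of the 13486 genes tested there, 3229 were called over all cells. These cells too are among the same cells, so the shared calls add no separate evidence. In that match the median log2 fold change was 0.67 for genes called higher over all cells and -0.42 for genes called lower. With the cluster in the match it was 0.050 and -0.077, against 0.76 and -0.53 for the same genes over all cells. Clusters 1 and 2 were the only clusters with at least 10 positive and 10 negative cells in every library. Within them edgeR called 0 of 11350 and 7 of 12139 genes, with 560 and 715 at an unadjusted p under 0.05. A share of 0.05 would lie under that p with no change in any gene. The equal-number match, the other clusterings and the fits within a cluster were chosen after the data were seen. The variable genes behind the clusters are among the genes that are compared, so a match on them also removes any difference that shaped the clusters. A negative cell may also hold transcripts of Xelaev18033986m.g that were not captured. The 2 sides of a cluster may thus differ little in its true level. How far they differed in it was not tested, so few calls there say little about that gene.

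**Figure D4:**
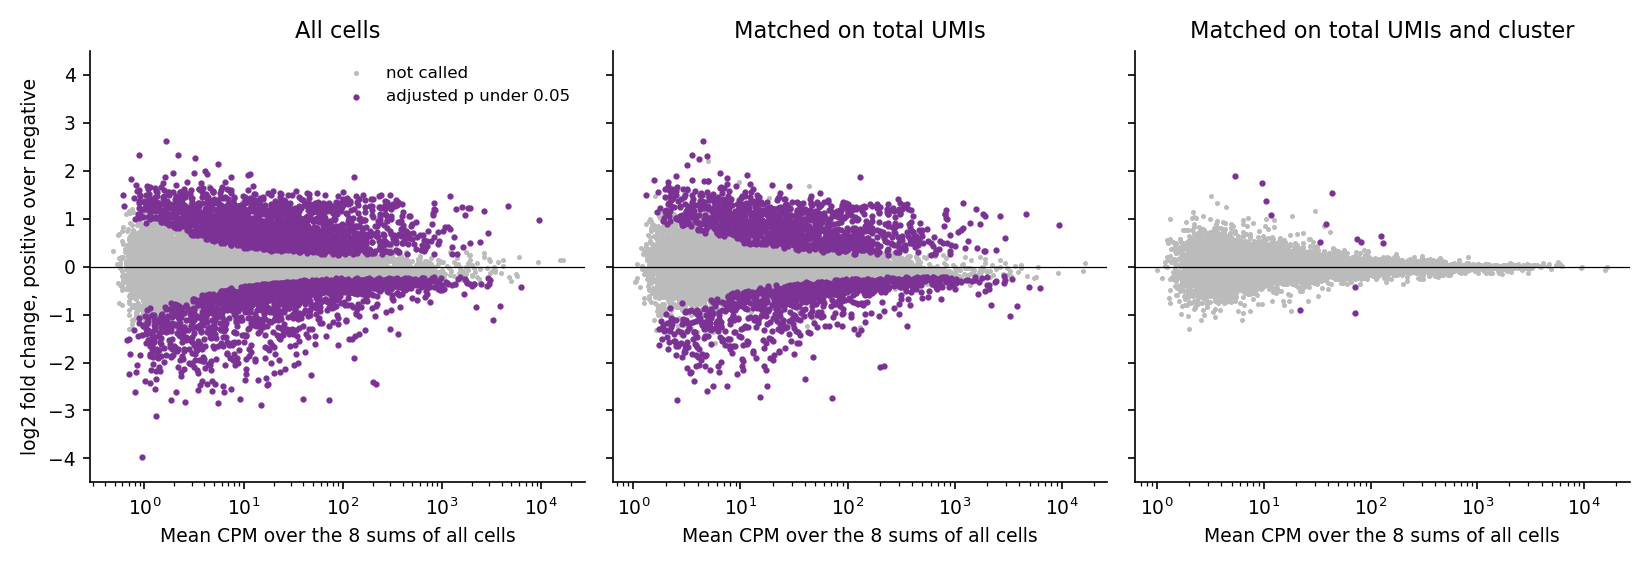
Each point is a gene, with its mean CPM over the 8 sums of all cells on a log axis and its log2 fold change of positive over negative cells, over all cells (left), with negative cells matched on total UMIs (middle) and matched on total UMIs and cluster (right). Purple marks an adjusted p under 0.05, which 3556, 2187 and 14 genes reach.

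Single genes are named by a rule: the 2 largest rises and 2 largest falls among the 2787 called genes with the same direction in all 4 libraries and a mean of at least 5 CPM. Each is known by its identifier only. Xelaev18031650m.g stood at 2.46 CPM in positive against 20.1 in negative cells of NT1 and 2.27 against 28.8 in IVF1. In experiment 2 it stood at 1.82 against 22.9 CPM in NT2 and 9.14 against 33.1 in IVF2. The positive values, 1.82 to 9.14 CPM, thus lay below all 4 negative values. The log2 fold change was -2.88 (SE 0.29; edgeR adjusted p = 0.00016).

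Xelaev18044475m.g stood at 0.758 CPM in positive against 2.22 in negative cells of NT1, and at 0 against 3 UMIs in IVF1, which is too few to compare. It stood at 0.928 against 5.82 CPM in NT2 and 3.32 against 31.4 in IVF2. The sides of different libraries overlapped, and the fall was largest in the experiment 2 libraries. The log2 fold change was -2.85 (SE 0.24; edgeR adjusted p = 8.0e-05).

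The 2 largest rises rested on experiment 2. Xelaev18032437m.g had 1 UMI in positive against 0 in negative cells of NT1 and 2 against 2 in IVF1. It stood at 6.94 against 1.75 CPM in NT2 and 65.2 against 17.7 in IVF2. The log2 fold change was 1.94 (SE 0.17; edgeR adjusted p = 8.8e-05). Xelaev18030964m.g stood at 3.60 against 3.37 CPM in NT1 and 2.27 against 2.00 in IVF1, which hardly differed, and at 114.4 against 25.7 in NT2 and 741 against 151 in IVF2. Its log2 fold change was 1.87 (SE 0.27; edgeR adjusted p = 0.0011), and DESeq2 gave an adjusted p of 0.089.

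Matched on total UMIs alone, the 4 genes named by the rule stayed called (edgeR adjusted p = 0.0013 to 0.0069). Their log2 fold changes were 1.90 for Xelaev18032437m.g, 1.88 for Xelaev18030964m.g, -2.73 for Xelaev18031650m.g and -2.48 for Xelaev18044475m.g. Xelaev18030964m.g then had 6 UMIs in positive against 12 in negative cells of NT1. In the match on total UMIs and cluster these 4 genes were not called. Their log2 fold changes there were 0.25 for Xelaev18032437m.g, 0.20 for Xelaev18030964m.g, -0.73 for Xelaev18031650m.g and -0.38 for Xelaev18044475m.g, at edgeR adjusted p-values of 0.48 to 0.93. Without NT2, Xelaev18030964m.g was the 1 gene called in that match (0.64; edgeR adjusted p = 0.0098), and without IVF2 its value was -0.53.

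Xelaev18031251m.g had the lowest adjusted p in that match. Over all cells it missed the threshold (log2 fold change 1.34, SE 0.46; edgeR adjusted p = 0.067), and its log2 ratio was 0.63 in NT1 and 2.54 in NT2, against -1.23 in IVF1 and -0.24 in IVF2. In NT2 it was seen in 261 of 497 positive cells (52.5%) and 103 of 553 negative cells (18.6%). In the match it had 8 UMIs in positive against 5 in negative cells of NT1, 1 against 0 in IVF1, 301 against 82 in NT2 and 15 against 4 in IVF2. The log2 fold change was 1.75 (SE 0.19; edgeR adjusted p = 0.00025), while DESeq2 gave 1.63 with an adjusted p of 1.00. Most of its UMIs were from NT2, and with NT2 or IVF2 left out or at the finer resolution it did not pass the filter on low counts.

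A pair of other genes was called over all cells but not in the match on total UMIs and cluster. Like Xelaev18031251m.g, they had been picked because their cells or values crossed this set of cells. Their calls over all cells therefore add no separate evidence. Xelaev18021230m.g was higher in positive cells of every library, at 46.4 against 21.7 CPM in NT1, 232.7 against 93.3 in IVF1, 44.7 against 19.0 in NT2 and 1261 against 391 in IVF2 (log2 fold change 1.37; edgeR adjusted p = 6.5e-05), and its log2 fold change in the match on total UMIs and cluster was 0.03. Xelaev18030329m.g was also called higher (1.21; edgeR adjusted p = 0.00071) and had -0.072 in that match, against 0.11 with the finer clusters. Its libraries differed in the match, with 36 UMIs in positive against 15 in negative cells of NT2. There were 71 against 88 in NT1, 741 against 789 in IVF1 and 2497 against 2645 in IVF2.

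**Figure D5:**
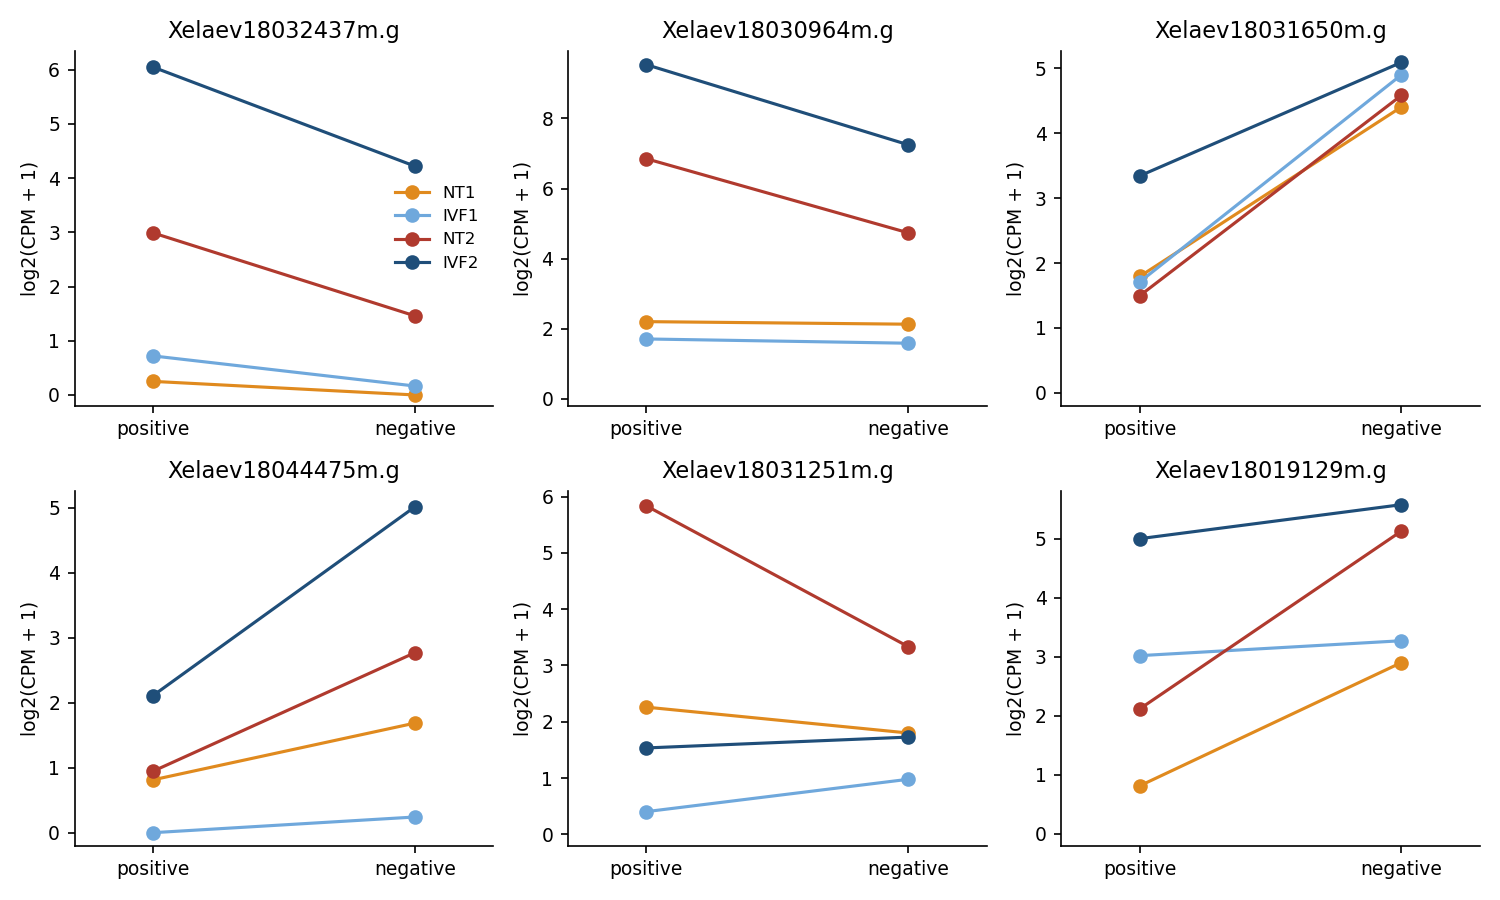
Level of 6 genes in positive and negative cells, as log2 of the CPM plus 1, with a line for each library. Xelaev18031650m.g falls in positive cells of all 4 libraries, the lines of Xelaev18030964m.g are nearly flat in experiment 1, and Xelaev18031251m.g stands apart in positive cells of NT2.

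Positive cells may differ from negative cells in another way in NT than in IVF. This was tested with an interaction term on the same 8 sums, which leaves 2 residual degrees of freedom. The term set NT1 and NT2 together against IVF1 and IVF2, and the fit had no term for side by experiment. At an edgeR adjusted p under 0.05, 0 of the 16048 genes were called for a higher log2 ratio of positive over negative cells in NT. For a lower ratio in NT 1 gene (0.00623%) was called. An unadjusted p under 0.05 was seen for 542 of the 16048 genes, where a share of 0.05 would lie with no change in any gene. DESeq2 called 0 and 3. The called gene, Xelaev18019129m.g, named after its values were seen, stood at 0.758 CPM in positive against 6.48 in negative cells of NT1 and 3.34 against 34.1 in NT2. In IVF it stood at 7.12 against 8.67 CPM in IVF1 and 31.1 against 46.9 in IVF2. It was thus lower in positive cells of all 4 libraries, and further below the negative cells in NT. The NT1 values rest on 4 UMIs in positive and 73 in negative cells. In the match on total UMIs and cluster, it had 2 against 2 UMIs in NT1 and 21 against 21 in IVF1. In experiment 2 it had 61 against 195 UMIs in NT2 and 203 against 227 in IVF2. The interaction was not tested in that match. Over all cells the log2 difference of NT minus IVF was -2.90 (SE 0.29; edgeR adjusted p = 0.025). With negative cells matched on total UMIs alone it was -2.21 (SE 0.37; edgeR adjusted p = 0.60). For Xelaev18031251m.g the interaction was 2.48 on the log2 scale with an edgeR adjusted p of 1.00, and passed with no filter on low counts and without NT1 (2.57 and 2.96; edgeR adjusted p = 1.3e-05 and 0.0072).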

How the data were processed

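The deposited values were UMI counts per gene and cell, whole numbers without normalization. The authors aligned 10x Genomics 3' reads to the X. laevis genome (v9.1) with Cell Ranger (2.2.0 in the submitters' processing notes) and kept cells with over 6000 UMIs and 2000 genes. Each cell was assigned to its library by its file. The members and lists were chosen with earlier results of these data known.

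Counts of positive and of negative cells were summed per library, without Xelaev18033986m.g. The 8 sums were fitted with edgeR 4.0.16 (quasi-likelihood test, TMM, filterByExpr by side, Benjamini-Hochberg adjustment) with the library as a block, which leaves 3 residual degrees of freedom; both sides of a sum pair come from the same library. The interaction of side and condition was fitted likewise. P-values of the paired fit measure the spread, over 4 libraries, of the difference of positive and negative cells. The spread between the libraries themselves is taken up by the block. Standard errors were derived from the F statistic. DESeq2 1.42.0 in R 4.3.3 was the alternative. Log2 ratios per library used a prior count of 2. Total counts per library ran from 16543235 to 58592836 UMIs. A count of 0 among all cells of a library would allow a share of up to 0.584% in NT1, 0.530% in IVF1, 0.286% in NT2 and 0.235% in IVF2. These limits do not hold for a count of 0 in a cluster, which has fewer cells and a wider limit.

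Clusters came from Seurat 5.3.0 (canonical correlation integration over the 4 libraries, 2000 variable genes, 20 dimensions, resolution 0.5), without the gene; resolutions 0.3 and 1 and another random seed were tried. The resolution of 0.5 is the one that the study selected. Its procedure for selecting it and its cluster names were not repeated. Scrublet (scanpy 1.11.5, expected rate 5%) called doublets, which were left out in an alternative only. Thinned shares are expected values of a hypergeometric draw. Genes were named by the rule given with them, and 3 further identifiers were taken from an earlier pass over these data. These 3 were picked because their cells or values crossed this set of cells.

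On simulated sums, with 200 of 15796 genes changed, edgeR recovered 96 of 100 genes changed 2-fold and 100 of 100 changed 4-fold, with 15 false calls, and DESeq2 90 and 100, with 7 false calls. The changed genes all averaged at least 5 CPM, and the simulated sums were modeled on those of all cells. Recovery was not measured for less abundant genes, changes below 2-fold, the sums of matched cells or the interaction. Of 31179 genes in the files, 27451 had a UMI. No identifier matched the RefSeq table at hand, so symbols, marker lists and sequences are not reported. The alternatives were other scaling and filtering, no block, each library left out, matched or thinned cells, other minimum UMIs and doublets left out.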

Additional observations from a re-analysis of the deposited data

Results flagged for a closer look

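Over all cells, the log2 ratio of positive over negative cells for Xelaev18019129m.g lay further below 0 in NT than in IVF. The difference, NT minus IVF, was -2.90 on the log2 scale. Its adjusted p was 0.025 with edgeR over all cells. The call held, at -2.80 to -2.94, with DESeq2 (adjusted p = 1.0e-06), DESeq2 size factors (0.023), doublets left out (0.041), no filter (8.5e-13), without NT1 (0.00033) and without IVF1 (0.021). It was lost with cells thinned (-2.42, adjusted p = 0.13), matched on total UMIs (-2.21, 0.60), at least 2 UMIs (-4.65, 0.12), exactly 1 UMI (-1.56, 0.14), without NT2 (-2.57, 1.00) and without IVF2 (-3.12, 0.54). The sign was negative in all 12 alternatives. In the match on total UMIs and cluster, where the difference was not tested, NT1 had 2 against 2 UMIs. The gap there was largest in NT2, at 61 against 195 UMIs.

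Xelaev18031251m.g was higher in positive cells of both NT libraries and lower in positive cells of both IVF libraries, a log2 difference of 2.48. The test of that difference did not pass over all cells (edgeR adjusted p = 1.00). It passed with no filter on low counts (2.57, adjusted p = 1.3e-05) and without NT1 (2.96, adjusted p = 0.0072), but in none of the other 9 alternatives that gave a value (1.08 to 3.60, adjusted p = 0.46 to 1.00). IVF1 held only 1 UMI in positive and 16 in negative cells. The same arrangement of signs was found in 527 genes (3.28%) and the opposite one in 393 (2.45%).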

How the results depend on the processing

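The count of 3556 called genes stayed within 1.5 times under DESeq2 size factors (3490), DESeq2 (3029), no filter (4646), at least 2 UMIs (2685), exactly 1 UMI (3359), doublets left out (3557) and each library left out (2566 to 2867). It was 2187 with cells matched on total UMIs, 1790 with thinned cells and 1631 with as many cells as the cluster match but matched on UMIs only. Matched on UMIs and cluster it was 14, and there 0 with DESeq2, 17 with another random seed, 7 and 4 at resolutions 0.3 and 1, and 1 to 49 with a library left out (25 without NT1, 1 without NT2, 49 without IVF1, 10 without IVF2). Within clusters 1 and 2 it was 0 and 7. Without the replicate block (library) edgeR called 0 genes, with 1067 of 16048 at an unadjusted p under 0.05. Both sides of a library are cells of the same embryos, so the pairing is given by the design.

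The interaction count of 1 was 3 with DESeq2, 112 with no filter, 4 with thinned cells, 6 with exactly 1 UMI, 0 with matched cells or at least 2 UMIs, and 71 without NT1, 1 without NT2, 5 without IVF1 and 0 without IVF2. Genes of 1 direction in all 4 libraries numbered 6521, and 3662 thinned and 1786 matched on UMIs and cluster. Those past 0.5 numbered 1154, and 636 matched on UMIs, 549 thinned and 7 matched on UMIs and cluster.

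The share ratio of experiment 1 was 4.40 with at least 2 UMIs. In experiment 2 it was 5.81 and 8.65 with cells thinned to 20000 and 6000 UMIs and 11.2 with at least 2 UMIs, and the ratio of UMIs per positive cell was 1.86 and 1.27 thinned. With at least 2 UMIs the log2 ratio of positive over negative cells was 1.04 for total UMIs and 0.44 for detected genes.

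In the match on UMIs and cluster Xelaev18030964m.g turned to -0.53 without IVF2 and -0.40 with DESeq2, and to -0.50 within cluster 2. Xelaev18021230m.g turned to -0.021 without IVF2. Xelaev18030329m.g turned to -0.072 in the match at resolution 0.5, and to -0.050, -0.11, -0.053 and -0.051 in it without NT1, NT2, IVF1 and IVF2. It had -0.073 with another seed, -0.051 at resolution 0.3, and -0.060 and -0.23 within clusters 1 and 2. Xelaev18031251m.g was called with no filter (1.29), at least 2 UMIs (1.89) and without IVF2 (1.91), and had 0.02 over all cells without NT2. The causes were not tested.

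The fits within clusters, the other clusterings, the equal-number match, the leave-one-out and DESeq2 fits of the cluster match and the interaction without a library were chosen after seeing the data. With 2 libraries a condition, the interaction had 2 residual degrees of freedom.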
